A study of Mus musculus with 4 samples.

Results

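Interferon-responsive T cells are the lymph node T cells that the authors' deposited annotation names IFN-responsive T. They were chosen here by that name alone, and they make up 109 of the 4094 annotated T cells, 70 in the RGX-104 library and 39 in the control library. The cells came from tumor-draining lymph nodes of wildtype mice, collected 8 days after tumor cells were injected. The RGX-104 mice ate chow holding RGX-104, which activates the liver X receptors (LXR), from day 3 on, and the control mice ate control chow. Flow sorting kept T cells together with antigen-presenting cells (APCs), the RNA of each cell was read from the 5' end with a 10x kit, and the T cell receptors were read from a matching library. Both groups carried tumors, and the strain, the tumor line and the number of mice behind a library are not given in the sources used here. Each chow has 1 RNA and 1 receptor library, so no difference between chows has a replicate check or a test, and every value belongs to these libraries.

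Type I interferons bind the receptor made of Ifnar1 and Ifnar2, and the kinases Jak1 and Tyk2 then start a signal that switches on interferon-stimulated genes through the interferon-stimulated response element. The products of these genes block viral translation and replication, sense foreign nucleic acids and restrain the signal itself. In lymph nodes a small group of otherwise resting T cells is often found with this program on. LXR are nuclear receptors for oxidised cholesterol that induce cholesterol export and fatty acid synthesis.

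The RNA libraries held 8671 barcodes and 38480769 unique molecular identifiers (UMIs, counts of single RNA molecules) with RGX-104 and 7346 barcodes and 31530931 UMIs with control chow. The IFN-responsive T cells carried a median of 4954 UMIs per cell with RGX-104 and 5253 with control chow, near the medians of all T cells, 5048 and 4944. Summed over cells they held 381446 UMIs with RGX-104 and 206912 with control chow. One RGX-104 cell alone held 31650 UMIs, 8.30% of that sum, against at most 10036 in any other RGX-104 cell of the type. The main values that rest on it are marked. The libraries shared 95 barcodes, 15 among annotated cells and 0 among IFN-responsive T cells. Levels are in CPM: a gene's UMIs were summed over the cells compared and scaled to 1000000 UMIs of all genes. Ranges in parentheses are exact 95% intervals, which cover counting error only.

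The cells carried the markers that their name implies. Ifit3, an RNA-binding inhibitor of viral translation, stood at 236 CPM in RGX-104 and 420 CPM in control IFN-responsive T cells, against at most 15.1 CPM and 13.7 CPM in any other T cell type of the same library. Ifit1, its relative that recognises RNA caps, stood at 228 CPM with RGX-104 and 551 CPM with control chow, against at most 20.4 and 29.7 CPM elsewhere. Isg15, a ubiquitin-like modifier, stood at 731 CPM with RGX-104 and 913 CPM with control chow, against at most 247 and 203 CPM. All 3 were highest in this type among the 12 T cell types of both libraries. A UMI of Ifit1, Ifit3 or Isg15 was seen in 63 of 70 RGX-104 cells and in 39 of 39 control cells of the type, and in 23.4% of the other T cells of either library. Because the type was itself named from clusters of these cells, its marker levels describe it and are no test.

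The 20 genes that stood highest above the other T cells in both libraries were, after Ifit3, Rsad2, Oasl2, Ifit1, Usp18, Isg15, Isg20, Ifit1bl1, Slfn5, Oas3, Ddx60, Irf7, Ccl4, Zbp1, Iigp1, Xaf1, Bst2, Rtp4, Eif2ak2 and Phf11b. Rsad2, or viperin, which halts viral RNA synthesis, was 24.4 times as high as in other T cells with RGX-104 and 73.1 times with control chow. Ccl4, a chemokine, is the exception among them, because 1 cell in each library held 99.15% of its UMIs with RGX-104 and 98.3% with control chow. Of 1471 genes with at least 50 UMIs in these cells, 70, or 4.76%, were at least 2-fold higher than in other T cells in both libraries. Of the 64 listed type I interferon response genes 62 were matched in the matrices, 46 had 50 UMIs, and 36 of those were at least 2-fold higher in this way.

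The start sites of the leading genes are shown because the response element is what the program's genes are known to share. The RefSeq promoter windows of GRCm38.p6 (the build behind mm10) run from 250 bases before to 50 bases after a gene's start, and were searched on both strands for the core of the element, GAAA, then 2 bases of any kind, then GAAA, which reads TTTC, 2 bases and TTTC on the other strand. Overlapping matches were counted as separate matches. The core was found in 11 of the 15 leading genes that had a window (73.3%), in 26 of 50 type I response genes (52.0%) and in 14 of 25 listed genes of the interferon gamma response and class I presentation (56.0%). It was found in 3.99% of all 27025 genes with a window, and in 0 of 17 LXR targets. These are matches of letters, not measured binding sites. Stretches of 3 windows follow, each read along the gene's strand and ending before its start, with the matched cores in capitals:
Ifit1, chr19:34640755-34640843, plus strand: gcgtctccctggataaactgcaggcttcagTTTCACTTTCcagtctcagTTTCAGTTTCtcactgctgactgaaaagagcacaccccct
Isg15, chr4:156200845-156200926, minus strand: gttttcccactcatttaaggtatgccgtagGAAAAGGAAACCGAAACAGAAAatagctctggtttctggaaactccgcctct
Rsad2, chr12:26456533-26456602, minus strand: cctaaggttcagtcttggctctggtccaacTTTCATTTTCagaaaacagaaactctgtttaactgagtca
Ifit1 and Rsad2 carry the core in the reverse direction, and the 3 matches before Isg15 overlap each other. The protein-coding gene Ifit1 (ENSMUSG00000034459) spans 34640889 to 34650009 on chromosome 19, and Ifit3 (ENSMUSG00000074896) spans 34583119 to 34588982 on the same chromosome. Isg15 (ENSMUSG00000035692) spans 156199424 to 156200818 on chromosome 4, and Rsad2 (ENSMUSG00000020641) spans 26442743 to 26456452 on chromosome 12.

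Cells named IFN-responsive T were a larger share of the T cells with RGX-104, and the ratio was highest among CD4-only cells. They were 3.51% of T cells (2.74 to 4.41) with RGX-104, 70 of 1995, and 1.86% (1.32 to 2.53) with control chow, 39 of 2099. The ratio of the shares was 1.89 (1.26 to 2.87). Among the 11 other T cell types the same ratio ran from 0.599 to 2.89, and its interval lay above 1 for Cytotoxic T and Bcat1+ T cells and below 1 for Tfh and gd T cells. A share ratio of this size was thus seen in other types too. The RGX-104 cells so named were more weakly marked. At least 3 UMIs of Ifit1, Ifit3 and Isg15 together were held by 41 of 70, 58.6% (46.2 to 70.2). With control chow 36 of 39 held them, 92.3% (79.1 to 98.4). The share ratio at that minimum is not given here, and the part of weakly marked cells in the larger share was not tested. Among T cells with a Cd4 UMI and no Cd8a or Cd8b1 UMI (CD4-only cells), 26 of 534 were IFN-responsive with RGX-104, 4.87% (3.21 to 7.05), against 7 of 551 with control chow, 1.27% (0.512 to 2.60). That ratio was 3.83 (1.62 to 10.5). Among T cells with a Cd8a or Cd8b1 UMI and no Cd4 UMI (CD8-only cells), 28 of 988 were IFN-responsive with RGX-104, 2.83% (1.89 to 4.07), and 25 of 1007 with control chow, 2.48% (1.61 to 3.64), a ratio of 1.14 (0.642 to 2.04). Cells with neither UMI were IFN-responsive in 14 of 393 cases with RGX-104 and 5 of 476 with control chow, a ratio of 3.39 (1.15 to 12.03), and cells with both in 2 of 80 and 2 of 65. The difference between the CD4-only and the CD8-only ratio was not tested.

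**Figure D1:**
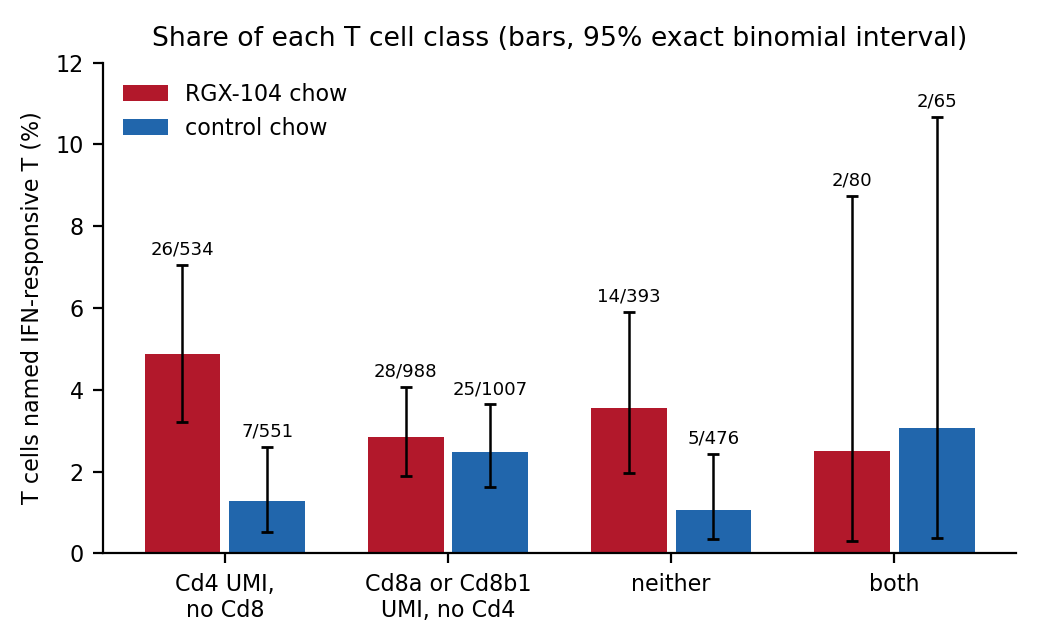
Share of T cells named IFN-responsive T (y axis, percent) in 4 classes of T cells by their Cd4 and Cd8a or Cd8b1 UMIs, RGX-104 in red and control chow in blue, with exact binomial 95% intervals and the cells counted above each bar. The RGX-104 share stands at 4.87% against 1.27% among CD4-only cells, and at 2.83% against 2.48% among CD8-only cells.

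The shares of the classes within the type differed between the libraries, but their intervals overlap. CD8-only cells made up 28 of 70 RGX-104 cells, 40.0% (28.5 to 52.4), and 25 of 39 control cells, 64.1% (47.2 to 78.8). With every cell thinned to 2000 UMIs, which lost no cell of the type, the shares were 40.0% (28.5 to 52.4) and 56.4% (39.6 to 72.2). CD4-only cells made up 37.1% (25.9 to 49.5) with RGX-104 and 17.9% (7.53 to 33.5) with control chow. A Cd4 UMI is a sparse readout: it was seen in 60.5% of RGX-104 and 58.4% of control Th1_01 cells, a CD4 type, at median depths of 4308 and 4438 UMIs. In CD8_01 cells, which should lack it, it was seen in 1.47% and 0.862%, at 5588 and 5626 UMIs. Cells with neither transcript are therefore not placed in a lineage here. Because the composition may differ, the main lists and some genes below are also given within the CD8-only cells, of which both libraries hold at least 25. The RGX-104 cell of most UMIs is CD8-only and held 31650 of the 185612 UMIs of that class. CD8-only ratios include it and are not given without it. The control CD4-only cells are 7 with 29111 UMIs.

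Among the cells so named, the interferon response per cell was lower with RGX-104. Type I response genes took a median of 1.59% of a cell's UMIs with RGX-104, with a lowest cell at 0.510% and a highest at 6.33%, and 1.89% with control chow, with a lowest cell at 0.929% and a highest at 5.27%. In the other T cells the median was 0.587% with RGX-104 and 0.573% with control chow. The ranges of the libraries overlap over most of their length. Summed over cells, the share was 1.67% of UMIs with RGX-104 and 2.05% with control chow, a ratio of 0.817 (0.786 to 0.850), the lowest of the 12 types. In the other 11 types it lay between 0.920 and 1.13, with Treg highest. In CD8-only cells alone the share was 1.65% with RGX-104 and 1.89% with control chow. Ifit1, Ifit3 and Isg15 together had a median of 4 UMIs per cell with RGX-104 and 7 with control chow. No UMI of the 3 was found in 7 of 70 RGX-104 cells, 10.0% (4.12 to 19.5), and in 0 of 39 control cells (0 to 9.025), where a floor of 3 counts allows a share of up to 7.69%. At 2000 UMIs per cell they were missing in 23 RGX-104 cells, 32.9% (22.1 to 45.1), and in 5 control cells, 12.8% (4.30 to 27.4). The threshold of the authors' clustering is not given in the sources used here. Because the cells were named from clusters of their RNA, the level within the type depends on where its edge fell in each library. The response of its lowest cell was reached by 1209 of 1925 other T cells with RGX-104 (62.8%). With control chow 285 of 2060 reached it (13.8%). The part of this edge in the lower response was not tested. Cells outside the type reached its median response too: 35 of 1925 other T cells with RGX-104, 9 of them Tfh and 11 Treg, and 16 of 2060 with control chow, 7 of them Tfh and 6 Treg.

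**Figure D2:**
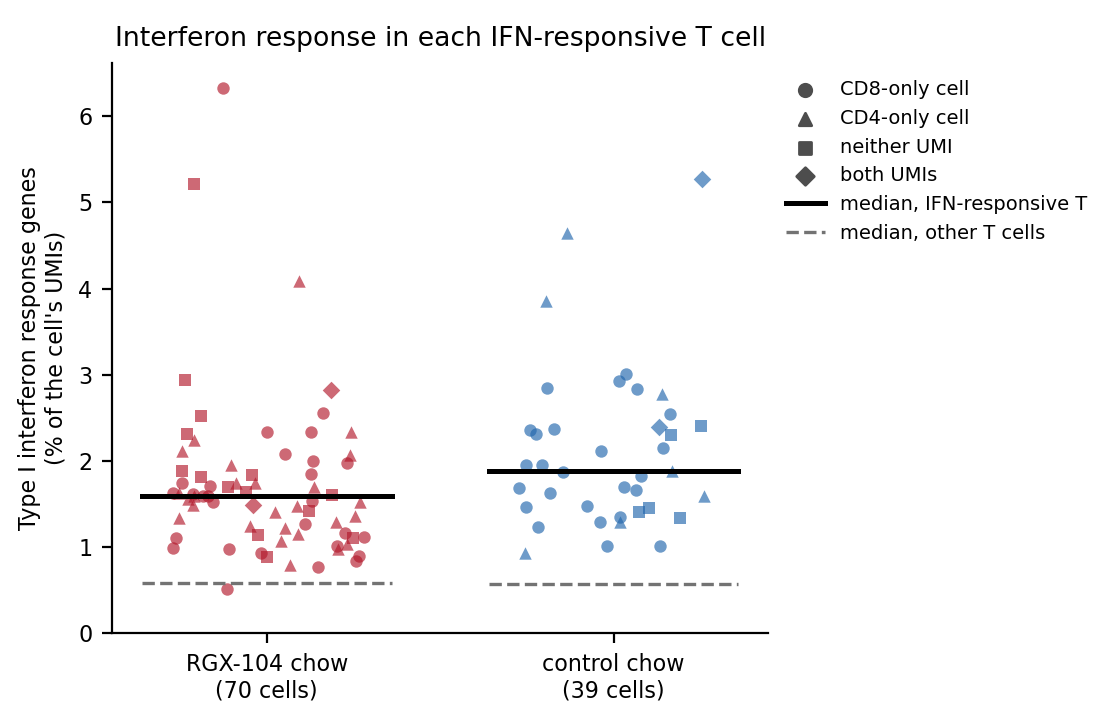
Type I interferon response genes as a percent of each cell's UMIs (y axis) in the 70 RGX-104 and 39 control IFN-responsive T cells, with marker shapes for the Cd4 and Cd8 classes. Solid lines are the medians of these cells, 1.59% with RGX-104 and 1.89% with control chow, and dashed lines those of the other T cells, 0.587% and 0.573%.

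Gene by gene, the response did not move as a block. A gene was called at a CPM ratio, RGX-104 over control, of at least 1.5 in either direction, among genes with at least 50 UMIs over both libraries. Of all 1471 such genes 9.25% were called higher and 6.25% lower. Of the 46 measured type I response genes 4 were called higher and 18 lower, and their median log2 ratio was -0.34, against 0.01 over all genes measured. The list was drawn up with earlier results of these data known. In CD8-only cells its members with at least 10 UMIs there had a median log2 ratio of -0.36, with 5 of 46 higher and 14 lower. In CD4-only cells it was -0.47, with 2 of 43 higher and 19 lower, on the 7 control cells named above. The share of all genes called at 10 UMIs within a class is not given here, for these or the later class counts. At 50 UMIs within the class, 67 of 740 genes were called higher and 42 lower in CD8-only cells. In CD4-only cells 33 of 331 were called higher and 35 lower.

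Of the measured members Ifit1 had the lowest ratio. It stood at 228 CPM (87 UMIs in 34 cells) with RGX-104 and 551 CPM (114 UMIs in 32 cells) with control chow, a ratio of 0.414 (0.309 to 0.552), and 0.416 in CD8-only cells. In other T cells the ratio of Ifit1 was 1.13. Ifit3 had a ratio of 0.561 (0.413 to 0.762), and 0.735 (0.487 to 1.11) in CD8-only cells, where it is not called. Rsad2 had 105 CPM with RGX-104 and 208 CPM with control chow, a ratio of 0.505 (0.320 to 0.795), and 0.817 (0.429 to 1.56) in CD8-only cells, which is not called. Slfn5, of the Schlafen family that restrains growth and viral translation, had a ratio of 0.506 (0.379 to 0.674) and Epsti1 one of 0.529 (0.407 to 0.687), and in CD8-only cells these were 0.484 and 0.577. Ifi209, of the DNA-sensing Ifi200 cluster, had 178 CPM with RGX-104 and 358 CPM with control chow, a ratio of 0.498 (0.353 to 0.702), and 0.624 in CD8-only cells. Ifit, Slfn and Ifi200 genes have close copies, among them Ifit1bl1 and Ifit3b, so reads may be split among relatives. Irf7, the factor that amplifies interferon production, had a ratio of 0.651 (0.474 to 0.896), and 0.599 in CD8-only cells. Zbp1, a sensor of Z-form nucleic acid, had one of 0.700 (0.538 to 0.915).

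Other members were called higher or not called. Usp18, the protease that removes Isg15 and damps the receptor, had a ratio of 0.945 (0.614 to 1.48). Isg15 itself had a ratio of 0.801 (0.663 to 0.968), and 1.05 in CD8-only cells. There the RGX-104 cell of most UMIs held 37 of the 157 RGX-104 UMIs of Isg15. Ly6a, or Sca-1, a surface protein of activated T cells, had 978 CPM with RGX-104 and 478 CPM with control chow, a ratio of 2.04 (1.63 to 2.58). In other T cells the ratio of Ly6a was 1.32. Without the RGX-104 cell of most UMIs it was 1.89 (1.51 to 2.40) over all cells of the type. In CD8-only cells, that cell included, the ratio was 3.12. Eif2ak2, the kinase PKR that shuts down translation on double-stranded RNA, had a ratio of 1.51 (0.803 to 3.01), an interval that spans 1.

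**Figure D3:**
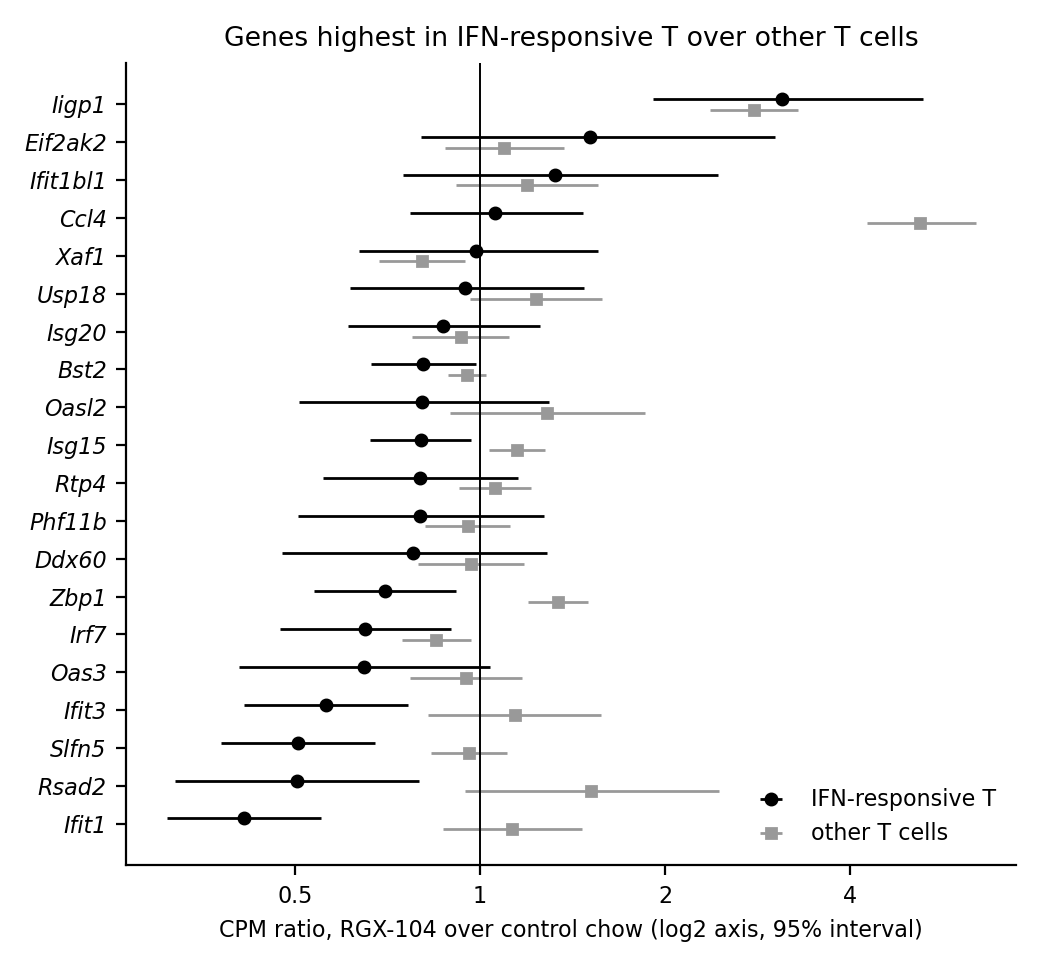
CPM ratio, RGX-104 over control chow (x axis, log2 scale, 95% intervals), of the 20 genes highest in IFN-responsive T cells over other T cells, in IFN-responsive T cells (black) and in other T cells (grey). Ifit1 stands lowest in IFN-responsive T cells at 0.414 and at 1.13 in other T cells, and Iigp1 stands highest at 3.09 and is at 2.79 in other T cells.

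Genes more tied to interferon gamma were arranged otherwise. Of 26 measured genes of the interferon gamma response and class I presentation 4 were called higher and 2 lower, and the list's median log2 ratio was 0.05. Iigp1, an immunity-related GTPase that attacks parasite vacuoles, had 299 CPM (114 UMIs in 42 cells) with RGX-104 and 96.7 CPM (20 UMIs in 12 cells) with control chow, a ratio of 3.09 (1.91 to 5.25), and 2.67 in CD8-only cells. In other T cells the ratio of Iigp1 was 2.79, so the difference was common to T cells. Irgm2, its regulator, had a ratio of 2.30 (1.24 to 4.58), Socs1, the feedback inhibitor of the Janus kinases, one of 1.68 (1.002 to 2.94), and Irf1 one of 1.51 (1.03 to 2.26). The class I heavy chain H2-K1 had a ratio of 1.12 (1.02 to 1.24), its light chain B2m one of 1.10 (0.990 to 1.22). Cxcl10, a chemokine that attracts activated T cells, had a ratio of 0.374 (0.244 to 0.569), but 1 cell held 87.9% of its control UMIs. Gbp7, a guanylate-binding protein, was the other member called lower, at 0.613 (0.438 to 0.860). Outside that list, Cd74, the class II invariant chain, had 239 CPM with RGX-104 and 72.5 CPM with control chow, a ratio of 3.29 (1.89 to 6.12), and 1.49 in other T cells.

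The interferon receptor was read in both libraries. Ifnar1 had 128 CPM with RGX-104 and 91.8 CPM with control chow, a ratio of 1.40 (0.809 to 2.52), and Ifnar2 had 52.4 and 77.3 CPM, a ratio of 0.678 (0.334 to 1.40). The kinase Jak1 had 330 CPM with RGX-104 and 556 CPM with control chow, a ratio of 0.594 (0.458 to 0.772), against 0.970 in other T cells. Of 12 measured receptor and signal genes 4 were called higher and 2 lower. The source of the interferon was not seen: 20 type I and type III interferon genes together had 1 UMI among all RGX-104 barcodes, APCs included, and 0 among all control barcodes. Ifng had 4 UMIs in 1 RGX-104 cell and 9 UMIs in 1 control cell of the type.

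In their sums, LXR targets and the cholesterol genes were higher with RGX-104, as in other T cells. These lists are sparse in T cells, so their members count as measured at 10 UMIs, where 20.9% of all 5810 genes were called higher and 15.5% lower, and the median log2 ratio of all genes was 0.06. Of 13 measured LXR targets 10 were called higher and 1 lower, and their median log2 ratio was 1.44. Of these 13, 9 had under 10 control UMIs and so passed the minimum only through the RGX-104 cells, and their count is a description. The median log2 ratio was 1.26 in CD8-only cells, with 7 of 10 higher, and 0.24 in CD4-only cells, with 3 of 10 higher. Scd2, a desaturase of fatty acid synthesis (ENSMUSG00000025203, chromosome 19 from 44293676 to 44306864), had 309 CPM (118 UMIs in 51 cells) with RGX-104 and 19.3 CPM (4 UMIs in 3 cells) with control chow, a ratio of 16.0 (6.09 to 59.7). Abca1, the cholesterol exporter, had 115 CPM with RGX-104 and 19.3 CPM with control chow, a ratio of 5.97 (2.17 to 22.9), and its partner Abcg1 a ratio of 2.30 (1.32 to 4.26). Srebf1, the factor of fatty acid synthesis, had a ratio of 9.40 (3.04 to 47.1) and Fasn, fatty acid synthase, one of 8.498 (2.74 to 42.7), each from 3 control UMIs. Smpdl3a, an LXR-induced phosphodiesterase, was the member called lower, at 0.501 (0.209 to 1.19). Summed, LXR targets took 1578 CPM with RGX-104 and 648 CPM with control chow, a ratio of 2.44 (2.02 to 2.96), within the 1.99 to 2.77 of the other types. Over all other T cells the ratio was 2.20.

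Cholesterol synthesis and uptake stood further apart. Of 17 measured genes 15 were called higher and 0 lower, and their median log2 ratio was 2.55. All 17 had under 10 control UMIs and passed the minimum only through the RGX-104 cells. The median log2 ratio was 2.81 in CD8-only cells, with 9 of 9 higher, and 1.03 in CD4-only cells, with 7 of 11 higher. Fdps, which makes farnesyl diphosphate, had 58 UMIs with RGX-104 and 1 with control chow, a ratio of 31.5 (5.43 to 1264). Srebf2, the pathway's transcription factor, had a ratio of 5.86 (2.36 to 18.8), against 2.22 in other T cells. Pmvk and Ebp were the measured members called neither way, at 1.01 (0.374 to 2.98) and 1.18 (0.417 to 3.77). Summed, the list took 1421 CPM with RGX-104, the second highest of the 12 types, and 227 CPM with control chow, the lowest of the 12, a ratio of 6.26 (4.64 to 8.62). In the other 11 types the ratio lay between 1.796 and 3.28. The control sum rests on 47 UMIs, and without the RGX-104 cell of most UMIs the ratio was 6.003 (4.44 to 8.28). The difference between types was not tested.

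**Figure D4:**
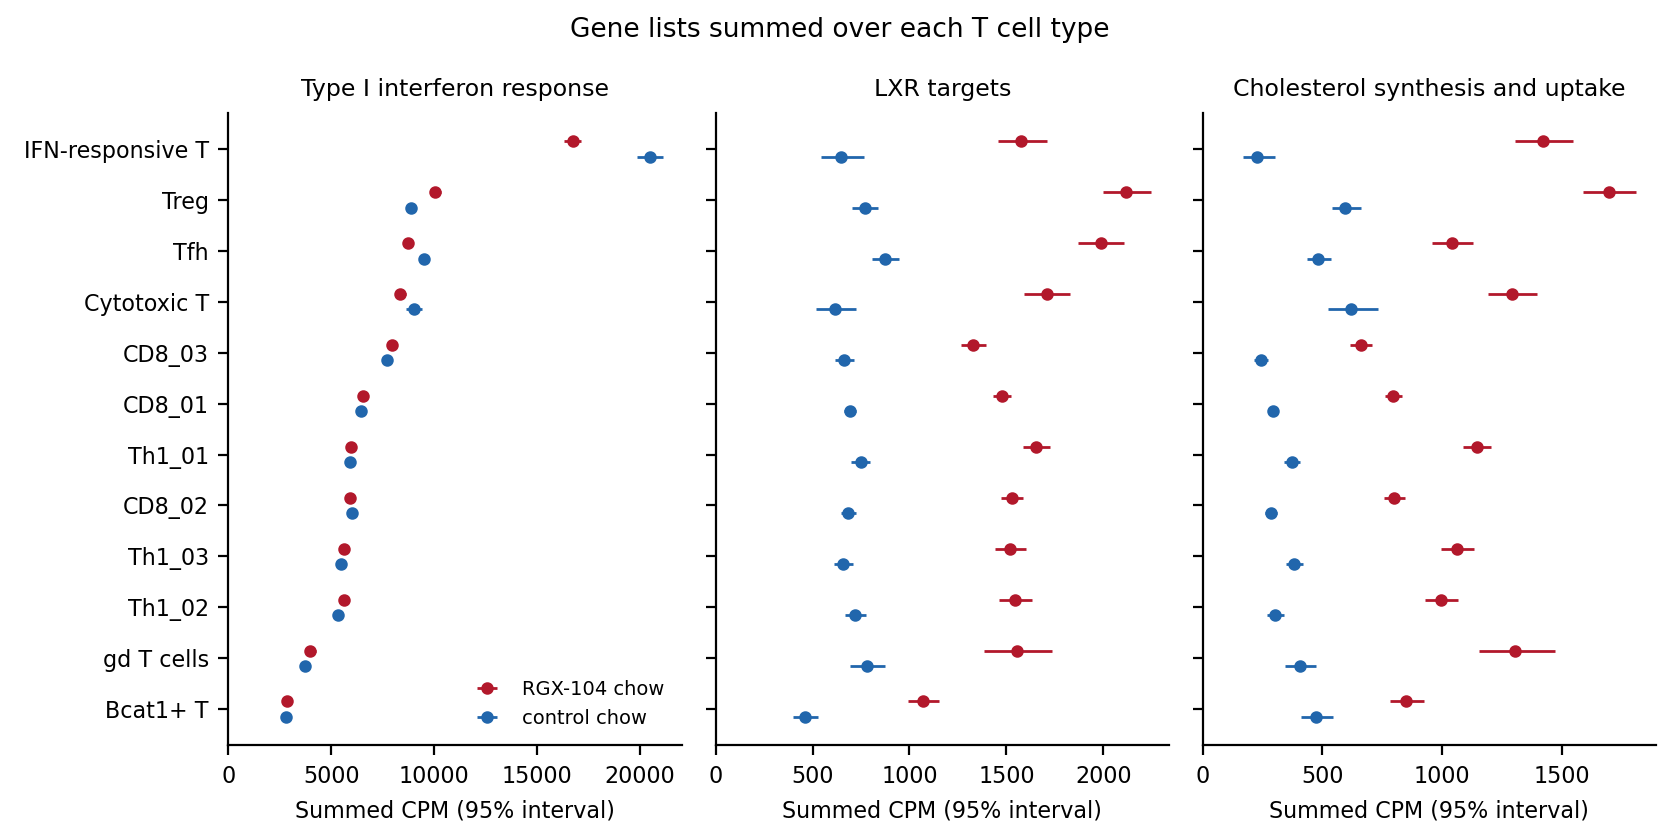
Summed CPM (x axes, with exact Poisson 95% intervals) of type I interferon response genes, LXR targets and genes of cholesterol synthesis and uptake in the 12 T cell types, RGX-104 in red above control chow in blue. IFN-responsive T cells stand at 16740 and 20490 CPM of response genes and at 1421 and 227 CPM of cholesterol genes.

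Few naive and memory genes were called between the chows. Of 16 measured 1 was called higher (Bach2, 1.504, interval 0.910 to 2.57) and 0 lower. In CD8-only cells 0 were higher and 5 lower, and in CD4-only cells 8 were higher and 1 lower. These class counts have no share of all genes at their minimum beside them, and the control CD4-only cells are few. The difference between the classes was not tested. Ccr7, the chemokine receptor that guides T cells to the node, had 690 CPM with RGX-104 and 768 CPM with control chow, a ratio of 0.897 (0.734 to 1.10). Cd44, which marks antigen experience, had 31.5 CPM with RGX-104 and 29.0 CPM with control chow, a ratio of 1.08 (0.377 to 3.52), against 54.4 and 58.3 CPM in other T cells. Cd69, an early activation marker that interferon also induces, had 304 CPM with RGX-104 and 343 CPM with control chow, against 158 and 252 CPM in other T cells. The activation list summed to 2063 CPM with RGX-104 and 1914 CPM with control chow, a ratio of 1.08 (0.954 to 1.22). In other T cells it stood at 2077 and 2129 CPM. Of its 6 measured members 2 were called higher and 0 lower. Without cells holding 2 or more UMIs of another lineage the direction turned: 1719 CPM with RGX-104 and 2061 CPM with control chow, a ratio of 0.834 (0.719 to 0.968). Foxp3, the Treg factor, had a UMI in 1 RGX-104 cell and in 0 control cells, and Tcrg-C1, a gamma chain gene, was at 0 in both.

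The sum of cytotoxic genes rested on 1 control cell. Of 5 measured members 3 were called lower and 0 higher, and the list's summed ratio was 0.576 (0.512 to 0.648). Nkg7, of cytotoxic granules, had 301 CPM with RGX-104 and 551 CPM with control chow, a ratio of 0.547 (0.419 to 0.715), and 0.753 in CD8-only cells. Ccl5, a chemokine of CD8 cells, had a ratio of 0.386 (0.316 to 0.469), but 1 control cell held 65.1% of its control UMIs. Without that cell, left out after seeing the data, Ccl5 had 464 CPM with RGX-104 and 440.2 CPM with control chow, a ratio of 1.05 (0.811 to 1.38), the summed ratio was 0.978 (0.851 to 1.13), and Nkg7 stayed at 0.547. Gzma, Gzmb and Klrk1 had 11, 9 and 15 UMIs with RGX-104 and 0 with control chow. The smaller share of CD8-only cells moved with these genes, and its part was not tested. Proliferation genes rested on the RGX-104 cell of most UMIs, which held 12 UMIs of Mki67 and 146 of Hmgb2. With that cell their sum was 1950 CPM against 1010 CPM with control chow, a ratio of 1.93 (1.65 to 2.26), and without it 752 CPM, a ratio of 0.744 (0.618 to 0.897). Hmgb2 alone had a ratio of 3.11 (2.15 to 4.62) with it and 0.853 (0.539 to 1.36) without it. H2afx, a histone of dividing and damaged cells, had a ratio of 3.19, with 68.1% of its RGX-104 UMIs in 1 cell. The other genes among the 10 lowest ratios were Tpst2, 0.390, Trim56, 0.403, Fos, an immediate early gene, 0.429, and Cited2, 0.436.

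At least 2 UMIs of other lineages, Bst2 and Ighm left aside, were found in 23 of 70 RGX-104 cells (32.9%) and 8 of 39 control cells (20.5%). Their part in the results was not tested beyond leaving these cells out. Fewer than 2 were held by 47 of 70 and 31 of 39 cells of the type. Among all annotated T cells this held for 1299 of 1995 with RGX-104 and 1483 of 2099 with control chow. Such UMIs were thus not particular to the type. Siglech, Cox6a2 and Tcf4 of plasmacytoid dendritic cells, Csf1r of macrophages, Flt3 and Clec9a of dendritic cells and the 4 erythroid genes were at 0 in both libraries. Bst2, listed for plasmacytoid cells, is itself an interferon-induced gene and made up 258 of the 271 UMIs of that list with RGX-104 and 173 of 177 with control chow. Ighm, the B cell heavy chain, had a UMI in 40 RGX-104 and 26 control cells, at 210 and 261 CPM, against 227 and 250 CPM in other T cells. B cell markers summed to 257 CPM with RGX-104 and 290 CPM with control chow, and myeloid markers to 136 and 116 CPM.

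No paired clonotype of the type was seen in more than 1 cell. Whether receptor sequences played a part in naming the cells is not given in the sources used here. A productive alpha and beta chain was read in 43 of 70 RGX-104 cells, 61.4% (49.0 to 72.8), and in 28 of 39 control cells, 71.8% (55.1 to 85.0). Cells were counted as one clonotype where the V segment, J segment and CDR3 nucleotides of both chains were identical. Of these paired cells 0 of 43 with RGX-104 (0 to 8.22) and 0 of 28 with control chow (0 to 12.3) had a clonotype seen in another T cell of the library. In the other T cells it was 29 of 1029, 2.82% (1.90 to 4.02), with RGX-104 and 22 of 1346, 1.63% (1.03 to 2.46), with control chow, shares that lie inside the intervals of the IFN-responsive T cells, so a difference was not detectable at this number of cells. By the beta chain alone, 88 of 1550 other T cells (5.68%) with RGX-104 and 55 of 1743 (3.16%) with control chow shared a chain. In IFN-responsive T cells 0 of 56 RGX-104 (0 to 6.38) and 2 of 37 control cells (0.662 to 18.2) did. The 2 control cells shared their chain with each other. It used TRBV5, and its CDR3, shown as the sole receptor repeat of the type, reads 5' to 3':
TRBV5 CDR3: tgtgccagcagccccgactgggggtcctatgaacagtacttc
An alpha chain (TRAV6-5) was read in 1 of the 2 cells, so whether they share a full clonotype was not determined. By the clonal frequency in the authors' deposited table, 8 of 58 RGX-104 cells (13.8%, 6.15 to 25.4) and 7 of 37 control cells (18.9%, 7.96 to 35.2) had a clone of more than 1. The definition of that frequency is not given in the sources used here. In the other T cells it was 421 of 1606 (26.2%) with RGX-104 and 287 of 1797 (16.0%) with control chow. With RGX-104 the share of the other T cells lies just above the type's interval, and this difference was not tested. Among the single other types it ran from 10.9% in Treg to 38.1% in gd T cells with RGX-104, so a low share was not particular to this type. Between the libraries, 0 of 56 RGX-104 cells (0 to 6.38) and 0 of 37 control cells (0 to 9.49) had a beta chain found in the other library. The same held for 3 of 1550 other T cells with RGX-104, 0.194%, and for 4 of 1743 with control chow, 0.229%, so sharing was rare in all T cells. Among barcodes with Cd3 transcripts and under 2 UMIs of another lineage that the authors' annotation leaves out, 12 of 865 with RGX-104 and 15 of 732 with control chow held at least 3 marker UMIs, a ratio of shares of 0.677 (0.289 to 1.55). These barcodes held medians of only 1159 UMIs with RGX-104 and 1280 with control chow. The counts therefore do not give the number of such cells that the annotation leaves out.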

How the data were processed

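Per the file headers and the submitters' processing notes, the authors made the deposited gene by barcode matrices of UMI counts with Cell Ranger on mm10 and used Seurat 5.0.3. The deposited receptor tables hold UMI counts per contig. The authors' annotation tables give each cell's UMI and gene counts, mitochondrial percent, doublet and cell cycle scores, cell type and clonal frequency counts, without barcodes. Annotated cells were joined to barcodes by UMI total, gene number and mitochondrial percent over genes seen in at least 3 barcodes. All 5825 matched exactly 1. No cell was removed and no doublet caller was run.

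UMIs were summed per library and type. A gene ratio carries an exact conditional binomial 95% interval, a share a Clopper-Pearson interval and a CPM a Poisson interval. With 1 library per chow nothing was tested. The members and the 24 gene lists were chosen with earlier results of these data known. Named genes are the 10 highest and 10 lowest ratios by the interval bound nearest 1, the 20 highest over other T cells, up to 4 per list, and 16 genes named in all cases. Other list members were named after their values were seen. In simulated counts 94.0% of genes changed 2-fold upward and 4.00% of unchanged genes were called higher. The simulation held counting error only, without spread between cells or libraries. Its rates are therefore not the error rates of these data, where single cells can hold most UMIs of a gene. Alternatives changed scaling, UMI minimum, depth, cells and clonotype definition (Python 3.11.15, edgeR 4.0.16 for TMM). Promoters and positions come from RefSeq GRCm38.p6. Some genes of these lists are not reported here.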

Additional observations from a re-analysis of the deposited data

Results flagged for a closer look

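The genes here are all among the 84 named genes, some of which were picked for extreme ratios. The same count over all measured genes is not given. Of all 1471 genes with at least 50 UMIs, 105 had an interval above 1 and 107 below 1 in IFN-responsive T cells. In 5 named genes the counting interval of the ratio, RGX-104 over control, lay on opposite sides of 1 in IFN-responsive T cells and in the other T cells. Ccl5 had a ratio of 0.386 (0.316 to 0.469) in IFN-responsive T cells and 1.95 in other T cells, but without the control cell of most Ccl5 UMIs it had 1.05 (0.811 to 1.38). Ifng had 0.241 (0.0542 to 0.864), from 1 cell in each library, against 5.70. Isg15 had 0.801 (0.663 to 0.968) against 1.15, and Zbp1 0.700 (0.538 to 0.915) against 1.34. The Isg15 ratio depended on the cells kept. It was 0.903 (0.748 to 1.09) among cells with a UMI of Ifit1, Ifit3 or Isg15, and 1.05 (0.819 to 1.34) in CD8-only cells. Without the RGX-104 cell of most UMIs it was 0.757 (0.624 to 0.921). Ltb, which encodes lymphotoxin beta of resting lymphocytes, had 1.39 (1.11 to 1.74) against 0.875. In 3 named genes the intervals lay on opposite sides of 1 in CD8-only and in CD4-only IFN-responsive T cells. Ccr7 had 0.630 in CD8-only and 1.86 in CD4-only cells, Dapl1, a gene of naive T cells, 0.639 and 8.60, and Icos, a costimulatory receptor, 5.46 and 0.283. The control CD4-only cells are 7. With 1 library per chow none of these differences was tested.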

How the results depend on the processing

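Of 88 alternative values 72 moved by less than the spread allowed or within 1.5 times the count, 16 moved further and 0 were labelled reversed. Counts of called genes and shares within the type could not be labelled reversed. The spread allowed for list medians was wide, log2 0.892 to 6.534 for the cholesterol genes and -0.874 to 0.069 for the type I genes. The proliferation and activation sums, which turned when cells were left out, are not among the 88. The share ratio lay between 1.52 and 1.97 over its alternatives, none of which asked for more than 1 marker UMI in a cell. The numbers of genes called higher and lower were 587 and 384 at a minimum of 20 UMIs (3617 genes), 27 and 20 at 100 UMIs (663 genes), 32 and 30 with cells thinned to 2000 UMIs (464 genes), 67 and 42 in CD8-only cells (740 genes), 33 and 35 in CD4-only cells (331 genes), and 34 and 13 at 2-fold. All but the last tested a different number of genes. Without cells holding 2 or more UMIs of another lineage, 66 were called higher among 912 genes, and Ifit1 had a ratio of 0.614 (0.434 to 0.866). In CD4-only cells the median log2 ratio of LXR targets was 0.245. The cause of that move was not tested. By the deposited clonal frequency, whose definition is not given in the sources used here, 13.79% of RGX-104 and 18.92% of control cells had a clone of more than 1 cell. Among the other T cells the shares were 26.2% and 16.0%. Of the settings chosen after seeing the data, leaving out the control cell of most Ccl5 UMIs moved Ccl5 to 1.05. The others left the direction of the response: among cells with a marker UMI the type I share ratio was 0.8579, and without the RGX-104 cell of most UMIs it was 0.814. The cholesterol list had no member at 100 UMIs, so it gave no value there. Depth limits single genes: a control count of 1 to 5 UMIs leaves wide intervals. No paired analysis was possible because each chow has 1 library.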
